A study of Rattus norvegicus with 6 samples.

Results

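The genes of the mitochondrial respiratory chain were followed in rat primary cultures kept for 24 h with PSNPs (polystyrene nanoplastics, as the series title spells them out) or with IR-813. The labels call the cells primary cultured microglia, a name that is set against markers below. The members were taken by name from the table of counts: symbols beginning with Nduf, with Sdha to Sdhd, with Uqcr, with Cox and a digit or with Atp5, and also Cycs, Cyc1, Surf1, Sco1 and Sco2. The rule found 100 of 16876 symbols, of which 78 encode structural subunits (cytochrome c included), 18 encode factors that assemble the enzymes and 4 fall in neither class. Each group had 3 libraries of poly(A) RNA, with 19166605 to 22553507 counts per library. The cells were shaken off mixed cultures, and the labels give no strain, sex or age of the rats. IR-813 was the treatment of the comparison libraries, whose columns the authors headed con; no untreated library was analysed here. The labels do not say that the libraries of a group came from separate cultures, so p-values here measure only how far these libraries scatter, which may be technical.

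The respiratory chain passes electrons from NADH (complex I) and succinate (complex II) through ubiquinone to complex III, then through cytochrome c to complex IV, which reduces oxygen. Complexes I, III and IV pump protons across the inner membrane, and complex V, the ATP synthase, uses their return to make ATP. Each complex except complex II joins subunits encoded in mitochondrial DNA to many more from nuclear genes, and dedicated assembly factors insert flavin, iron-sulfur, heme and copper cofactors and join the modules. Microglia use this pathway beside glycolysis and are known to lean more on glycolysis after inflammatory stimulation.

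Promoters of several nuclear respiratory genes are known to hold sites for NRF1, YY1, ERR and ETS family factors. The members' promoters were searched on both strands for exact letters of the NRF1 motif (the capitals of the Ndufaf4 window below), the YY1 motif (the capitals of the Atp5j window), TCAAGGTCA (ERR) and CCGGAAGTG (ETS), in windows of 300 bases that reach 250 bases upstream of the RefSeq gene start in build GRCr8. Of 86 members with a promoter sequence, 9 (10.5%) held the YY1 letters, against 1.16% of 27457 promoters. All 9 were subunits: Atp5j, Ndufa2, Ndufa6, Ndufa9, Ndufb8, Ndufs4, Ndufs6, Ndufs7 and Uqcrc1. The NRF1 letters were found in 7 members (8.14%), against 0.932% of all promoters. Those 7 were the complex V subunits Atp5g2, Atp5i and Atp5o, the complex I subunit Ndufa11 and the assembly factors Cox18, Ndufaf4 and Ndufaf5. The ETS letters were found in 6 members (6.98%) and the ERR letters in 2 (2.33%), against 1.98% and 0.412% of all promoters. YY1 letters stood in 5 of 24 members called higher with PSNPs (20.8%) and in 4 of 54 tested members without a call (7.41%), a difference that was not tested. The 5 windows below are shown as a match of each main kind beside the members with the largest changes: YY1 letters in Atp5j (chr11:37375052-37375351, minus strand) and Uqcrc1 (chr8:118467973-118468272, plus strand), NRF1 letters in Ndufa11 (chr9:1637364-1637663, plus strand, 2 overlapping matches) and in Ndufaf4 (chr5:43401545-43401844, plus strand), and none of the 4 motifs in Ndufb4 (chr11:76568928-76569227, plus strand). Capitals mark the matched letters, and all windows are RefSeq GRCr8 sequence read 5′ to 3′ on the gene's strand.
Atp5j promoter: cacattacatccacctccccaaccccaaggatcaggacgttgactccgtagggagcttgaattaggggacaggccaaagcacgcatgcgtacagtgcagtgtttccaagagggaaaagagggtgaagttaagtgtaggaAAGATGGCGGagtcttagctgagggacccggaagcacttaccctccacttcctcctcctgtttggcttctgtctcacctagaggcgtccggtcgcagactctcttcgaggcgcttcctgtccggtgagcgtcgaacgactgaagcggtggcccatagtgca
Uqcrc1 promoter: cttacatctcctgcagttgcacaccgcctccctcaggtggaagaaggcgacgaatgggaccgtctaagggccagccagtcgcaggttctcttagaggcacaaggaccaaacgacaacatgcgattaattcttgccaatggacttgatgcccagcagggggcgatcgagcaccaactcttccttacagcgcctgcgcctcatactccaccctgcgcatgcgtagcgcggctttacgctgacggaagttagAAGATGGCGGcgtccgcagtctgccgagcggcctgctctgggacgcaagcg
Ndufa11 promoter: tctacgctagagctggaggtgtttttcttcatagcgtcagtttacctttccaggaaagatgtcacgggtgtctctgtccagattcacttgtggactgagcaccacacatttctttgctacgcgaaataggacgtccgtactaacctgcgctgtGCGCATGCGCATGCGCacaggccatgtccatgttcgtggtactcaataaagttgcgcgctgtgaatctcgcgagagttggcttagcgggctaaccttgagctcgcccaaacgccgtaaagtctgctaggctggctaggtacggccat
Ndufaf4 promoter: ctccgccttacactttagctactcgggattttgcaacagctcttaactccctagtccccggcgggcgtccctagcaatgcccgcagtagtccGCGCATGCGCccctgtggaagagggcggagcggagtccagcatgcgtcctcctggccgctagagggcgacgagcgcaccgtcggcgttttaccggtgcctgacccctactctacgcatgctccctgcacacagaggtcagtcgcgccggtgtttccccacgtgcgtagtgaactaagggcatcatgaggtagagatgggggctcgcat
Ndufb4 promoter: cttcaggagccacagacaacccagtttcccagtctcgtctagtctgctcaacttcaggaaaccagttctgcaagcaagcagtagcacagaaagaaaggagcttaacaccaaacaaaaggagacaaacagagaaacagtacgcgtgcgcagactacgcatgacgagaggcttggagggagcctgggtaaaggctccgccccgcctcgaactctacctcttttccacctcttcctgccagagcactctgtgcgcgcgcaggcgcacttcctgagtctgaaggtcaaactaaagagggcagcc
A match is a description of these letters and not a measured site.

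1 library stood apart before any gene was compared. PSNPs replicate 3 correlated with the other PSNPs libraries at 0.971 and 0.974 across genes. PSNPs replicates 1 and 2 correlated at 0.995 and the IR-813 libraries at 0.993 to 0.996. The values are Pearson's r of log2 CPM, with counts scaled to TMM-adjusted library totals, and genes are not independent replicates. PSNPs replicate 3 was the highest of the 6 libraries for 71 of the 72 subunits that passed the filter on low counts. Values with and without it are therefore given below. The cell label was also set against markers. In the authors' deposited log2 values the astrocyte gene Gfap read 10.2 to 10.5 in PSNPs libraries and 9.89 to 10.4 in IR-813 libraries. The myelin gene Mbp read 9.46 to 9.85 in PSNPs libraries and 9.97 to 10.2 in IR-813 libraries. The microglial gene Aif1 read 5.06 to 5.75 in PSNPs libraries and 6.40 to 6.99 in IR-813 libraries, below both. Summed over 8 genes each, microglial markers came to 465 to 600 CPM in PSNPs libraries and 786 to 1040 CPM in IR-813 libraries, with 7 of 8 called lower and none at 0. Astrocyte markers summed to 7520 to 8340 CPM in PSNPs libraries and 6300 to 8090 CPM in IR-813 libraries, with 4 of 8 called higher. Oligodendrocyte markers came to 3230 to 3720 CPM in PSNPs libraries and 5640 to 6560 CPM in IR-813 libraries (8 of 8 lower). Neuronal markers came to 159 to 191 CPM in PSNPs libraries and 349 to 366 CPM in IR-813 libraries (5 of 7 tested lower). Markers of fibroblasts, pericytes and endothelium summed to 44.8 to 57.3 CPM in PSNPs libraries and 70.7 to 102 CPM in IR-813 libraries, with Col1a2 at 0. Of these, 2 of 4 tested were called lower. Over all tested genes 20.9% were called higher and 20.1% lower. In both groups the astrocyte and oligodendrocyte sums lay above the microglial sum, so the results below are not read as those of microglia alone. The part of these cell type differences in the results below was not tested.

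Estimates for respiratory chain genes lay mostly above 0, that is, higher with PSNPs than with IR-813, by small amounts. Of the 92 members that passed the filter, 28 were called higher (30.4%) and 1 was called lower (1.09%) at an adjusted p under 0.05 (edgeR, quasi-likelihood F test; Benjamini-Hochberg over all 11679 tested genes). The background was 20.9% of all tested genes higher and 20.1% lower. The members' median log2 fold change was 0.31, against -0.01 for all tested genes, and 83 of the 92 estimates lay above 0. Scaled by library size alone, 14 members were called higher (15.2%, below the 16.6% of all genes), and 40.5% of all calls were higher against 50.9% in the main scaling. In bulk RNA, fewer cells of a type and less RNA per cell cannot be told apart, so a level here is that of the whole culture.

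Among the members, this shift lay mostly in the subunits. Of 72 tested subunits, 25 were called higher (34.7%) and 0 lower by edgeR's quasi-likelihood test, with 0 lower also at an unadjusted p under 0.05 and by DESeq2. Over all members DESeq2 called 33 higher (35.9%, against 21.2% of all tested genes) and 1 lower (1.09%, against 21.1%). The subunits' median log2 fold change by edgeR was 0.34, from -0.10 for Ndufb9 to 0.94 for Ndufb4, and 70 of 72 lay above 0. The 25 called subunits were 1.18 to 1.92 times as high with PSNPs, and the libraries of the 2 groups did not overlap for any of them. Over all 72 subunits the groups did not overlap for 53, each higher with PSNPs, against a background of 30.0% of all tested genes higher without overlap (61.4% in either direction). Of 17 tested assembly factors, 3 were called higher (17.6%, near the 20.9% of all tested genes) and 1 lower (5.88%, against 20.1%). Their median log2 fold change was 0.09, with 11 estimates above 0 and 6 below. The groups did not overlap for 4 that were higher and 2 that were lower, against 30.0% of all tested genes higher and 31.4% lower without overlap. The difference between subunits and assembly factors was not tested. It covers only the assembly factors that the name rule matched. Of 41 other tested genes for assembly factors, electron transfer and coenzyme Q synthesis, 13 were called higher (31.7%), with a median of 0.28.

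**Figure D1:**
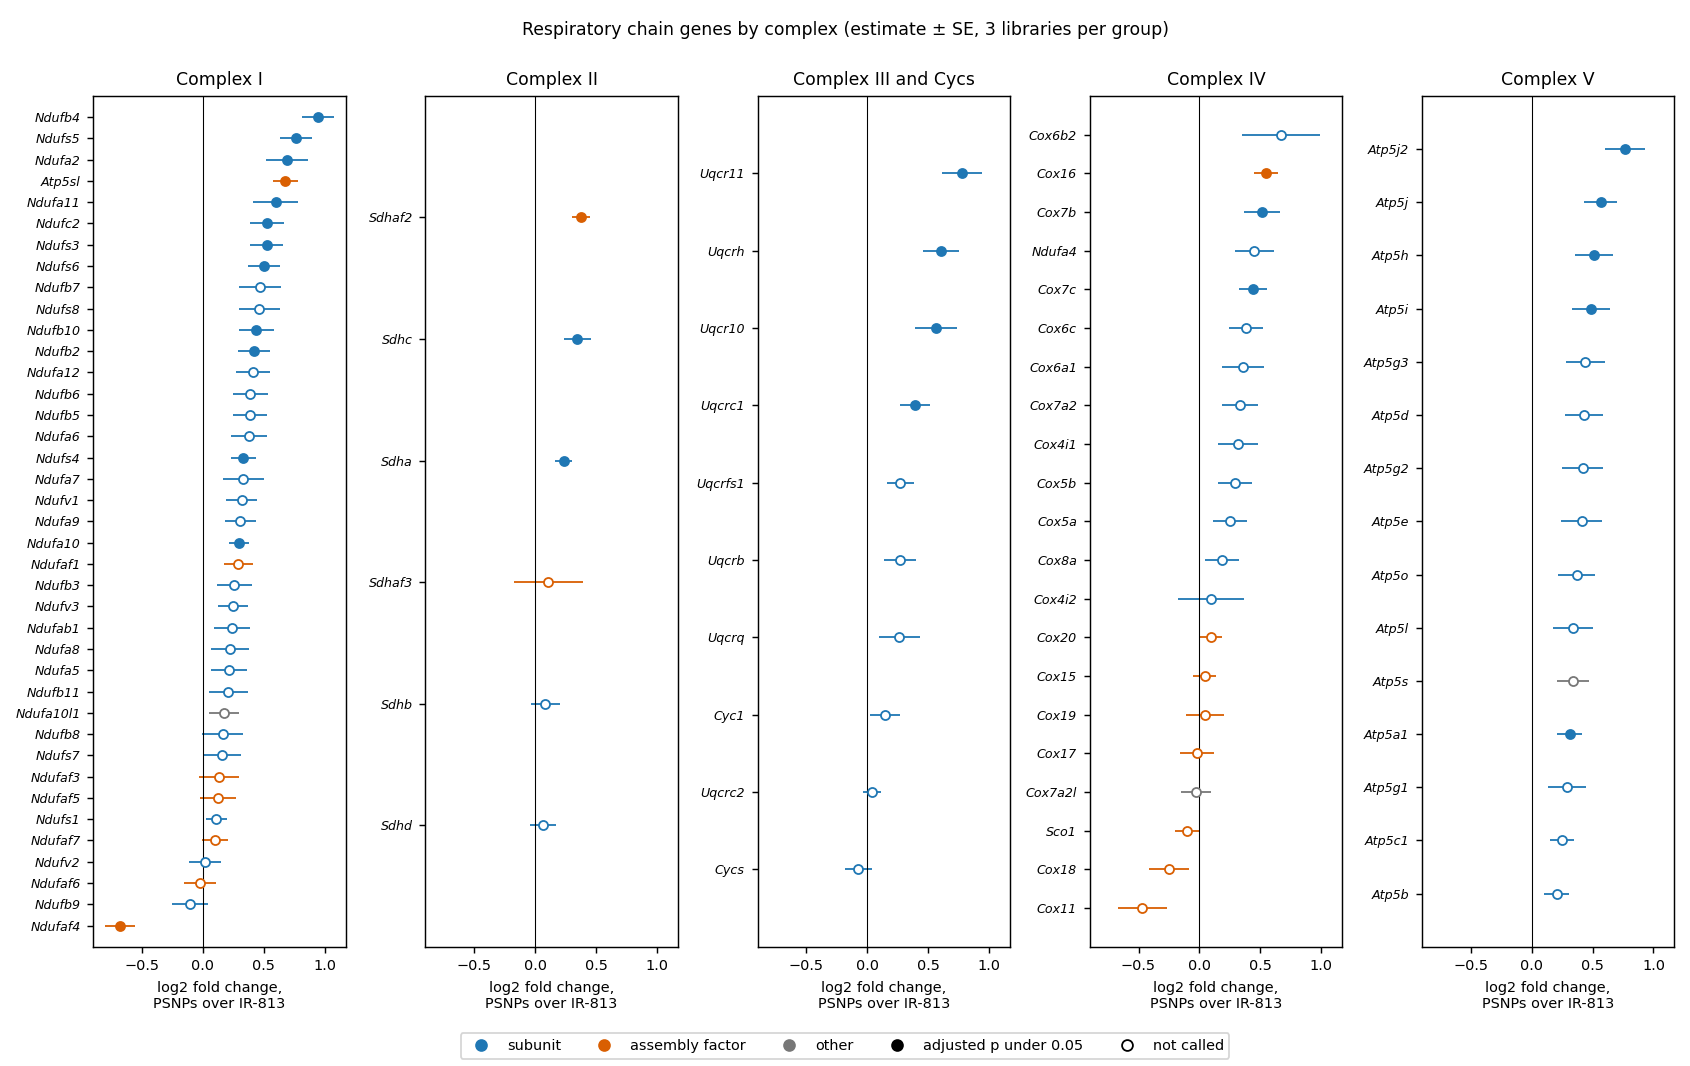
Log2 fold changes of tested respiratory chain genes, PSNPs over IR-813 (x axis; points are edgeR estimates, lines ± SE, 3 libraries per group), in a panel per complex. Filled points passed an adjusted p of 0.05; Ndufb4 stands highest at 0.94 and the assembly factor Ndufaf4 lowest at -0.68.

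**Figure D2:**
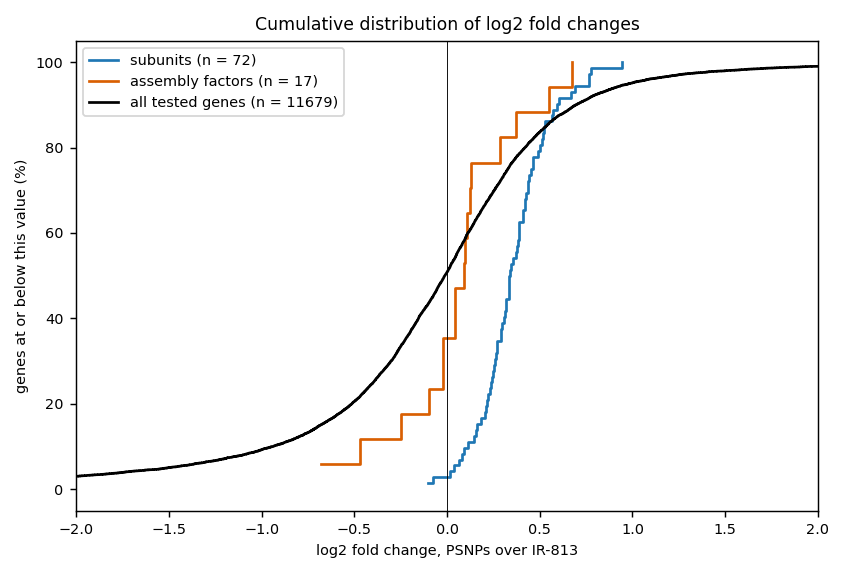
Share of genes (y axis, percent) at or below each log2 fold change, PSNPs over IR-813 (x axis), for 72 subunits, 17 assembly factors and all 11679 tested genes; values beyond the x axis are not drawn. The subunit curve lies to the right of 0 for 70 of 72 genes and rises steeply around its median of 0.34, while the curve of all genes crosses 0 near its middle.

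The size of the shift differed between the PSNPs libraries. Taking each library against the mean of the IR-813 libraries, the median subunit had a log2 ratio of 0.21, 0.19 and 0.65 in PSNPs replicates 1 to 3, against -0.02, -0.02 and 0.04 in IR-813 replicates 1 to 3. All PSNPs medians lay above all IR-813 medians, and PSNPs replicate 3 lay far above PSNPs replicates 1 and 2. The assembly factors had medians of -0.07, -0.01 and 0.24 in PSNPs libraries and 0.02, -0.0039 and -0.01 in IR-813 libraries, so only PSNPs replicate 3 lay above the IR-813 range. Without PSNPs replicate 3, 50 members were called higher and 8 lower of 93 tested, against a background of 30.4% higher and 29.5% lower. Subunits then had a median log2 fold change of 0.20 with 46 higher and 4 lower, of which 3 lower were among the 72 subunits of the main fit. The median of the assembly factors turned to -0.07. Leaving out an IR-813 library instead gave 7 members higher without replicate 1 (7.61%, against 12% of all genes), 6 without replicate 2 (6.52%, against 11.4%) and 11 without replicate 3 (11.8%, against 15.4%). The members' share of higher calls was thus below the background without any 1 of the IR-813 libraries.

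**Figure D3:**
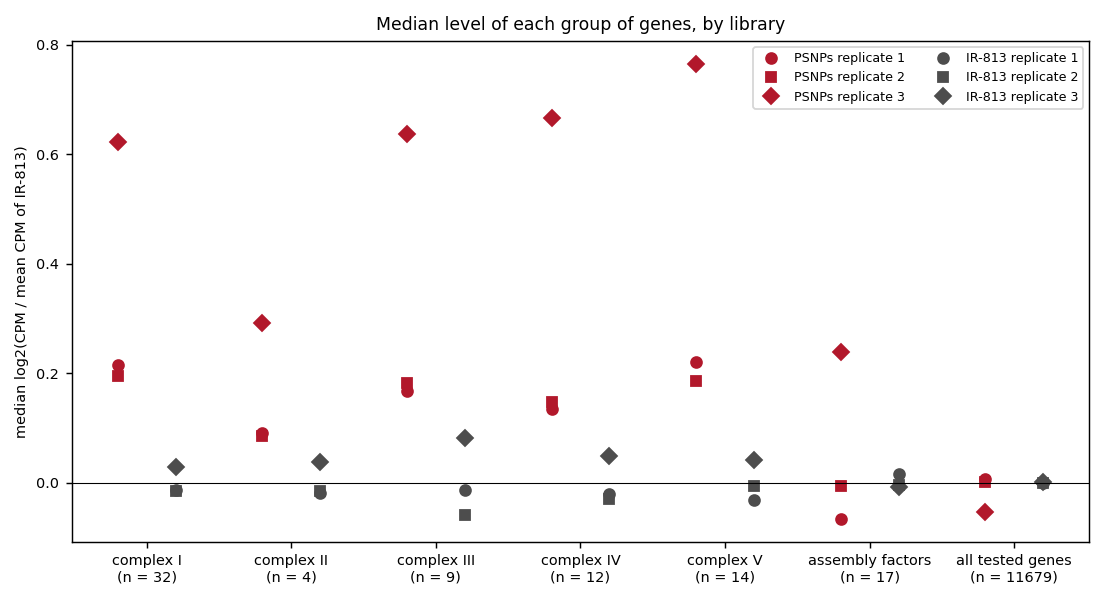
Median log2 ratio to the IR-813 mean (y axis) of the subunits of each complex, the assembly factors and all tested genes, with a point per library; red marks PSNPs and grey marks IR-813, and symbol shapes mark replicates 1 to 3. PSNPs replicate 3 is the highest point in every group of respiratory genes and the lowest for all tested genes, at -0.05.

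Most subunits are small proteins with short mRNAs, and short genes in general had the higher estimates in this comparison. A length proxy was taken from the factor by which each gene's counts and the authors' deposited log2 values differ, and was set to 0 at the median gene; the labels do not say which lengths the authors used. The median log2 fold change of all tested genes was 0.29 in the shortest 10% of genes and -0.31 in the longest 10%. The shortest 10% had medians of 0.16, 0.14 and 0.54 in PSNPs replicates 1 to 3 and -0.01, -0.01 and 0.03 in IR-813 replicates 1 to 3, so replicate 3 stood apart there as well. It held 50 of the 72 subunits, of which 17 were called higher (34%), a share close to the 31.7% of all genes that short. The median of those 50 subunits was 0.41, against 0.29 for all genes in the shortest 10%. Across the 72 subunits the log2 fold change and the proxy had a Spearman's rho of -0.57, and across 11655 genes of -0.30, both as descriptions of genes that share the same libraries. With an offset that removed the trend on the proxy from each library, 26 members were higher (28.3%) and 3 lower (3.26%), against 28.9% and 17.3% of all genes. With a robust version of that trend, added after the data were seen, 16 were higher and 9 lower, against 24.1% and 22.7% of all genes, and the subunit median was 0.07. With the first offset and without PSNPs replicate 3, 36 were higher and 11 lower of 93, against 35.6% and 24.1% of all genes. With all 6 libraries, the share of members called higher was below the background under both offsets.

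**Figure D4:**
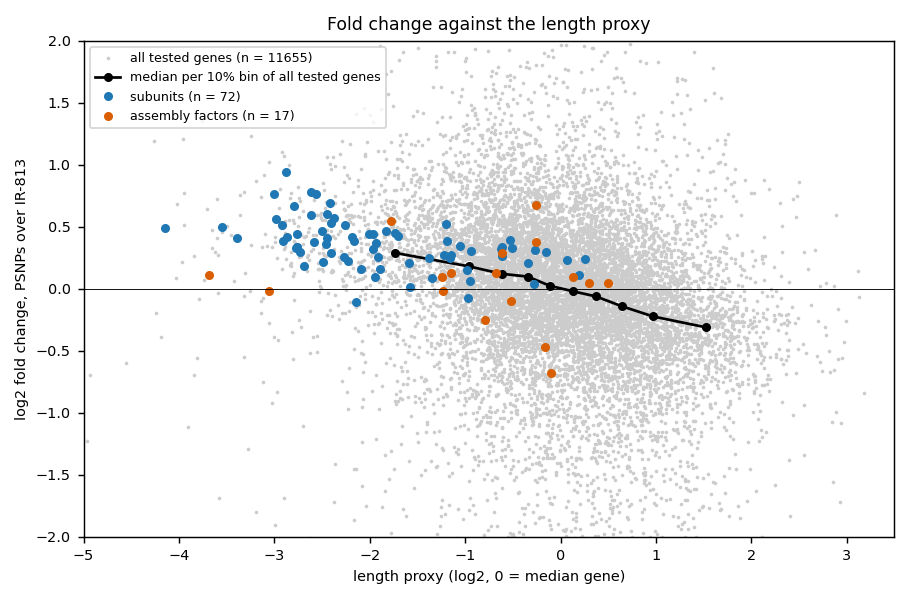
Log2 fold change, PSNPs over IR-813 (y axis), against the length proxy (x axis, log2, 0 at the median gene) for 11655 tested genes (grey), 72 subunits (blue) and 17 assembly factors (orange); genes beyond the axes are not drawn. The black line joins the medians of 10 equal bins of all genes, from 0.29 in the shortest to -0.31 in the longest, and most subunits lie at its short end.

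Complex I takes electrons from NADH through a matrix arm of core subunits that carry flavin and iron-sulfur clusters, surrounded by accessory subunits. Of its 32 tested subunits 12 were called higher (37.5%, against 20.9% of all tested genes) and 0 lower (against 20.1%). Their median log2 fold change was 0.33. Summed over these subunits, PSNPs replicates 1 to 3 had 2721, 2701 and 3581 CPM, against 2328, 2335 and 2413 CPM in IR-813 replicates 1 to 3. Every PSNPs library lay above every IR-813 library. Accessory subunits gave 10 calls of 25 (40%, median 0.38) and core subunits 2 of 7 (28.6%, median 0.32). With the robust length offset the median of the 32 subunits was 0.10. In that fit 7 were called higher and 2 lower, against 24.1% and 22.7% of all tested genes.

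Ndufb4, an accessory subunit of the membrane arm, had 156, 166 and 219 CPM in PSNPs replicates 1 to 3 and 93.0, 92.0 and 96.4 CPM in IR-813 replicates 1 to 3. The groups lay well apart, and the estimate was the largest of the members, at 0.94 ± 0.13 (log2 fold change ± SE; edgeR adjusted p = 0.0021). RefSeq names 7 pseudogenes of Ndufb4, so its counts are uncertain to the extent that reads were shared with them. Ndufs5, another accessory subunit, had 69.8, 66.4 and 90.4 CPM in PSNPs libraries and 43.6, 42.5 and 47.4 CPM in IR-813 libraries. The groups did not overlap and the log2 fold change was 0.76 ± 0.13 (edgeR adjusted p = 0.00472). Both calls held in all 15 alternatives run, with log2 fold changes of 0.55 to 1.04 for Ndufb4 and 0.40 to 0.85 for Ndufs5. The Ndufb4 promoter printed above holds none of the searched motifs.

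Ndufa2, an accessory subunit near the NADH-binding end, had 52.4, 49.3 and 73.6 CPM in PSNPs libraries and 33.7, 34.1 and 40.9 CPM in IR-813 libraries. Replicate 3 was highest in both groups, and the log2 fold change was 0.69 ± 0.17 (edgeR adjusted p = 0.0185). Ndufs3, a core subunit of the module that binds ubiquinone, had 79.0, 81.9 and 109 CPM in PSNPs libraries and 62.9, 61.0 and 63.8 CPM in IR-813 libraries. It differed by 0.52 ± 0.13 (edgeR adjusted p = 0.0194), again with no overlap. Among the other called subunits were the accessory Ndufc2, Ndufs6, Ndufa10, Ndufa11, Ndufs4, Ndufb2 and Ndufb10, with log2 fold changes of 0.30 to 0.60. Each of these 7 lost its call without IR-813 replicate 1, 2 or 3 (edgeR adjusted p of 0.0658 to 0.157). Without IR-813 replicate 1, 2 or 3 the adjusted p of Ndufs3 was 0.0690, 0.0795 and 0.0591, and that of Ndufa2 was 0.0758 without replicate 1 and 0.0764 without replicate 2.

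Not every complex I subunit had this layout. Ndufs1, the largest iron-sulfur core subunit, had 174, 181 and 153 CPM in PSNPs libraries and 158, 156 and 156 CPM in IR-813 libraries. It was the only subunit with its lowest value in PSNPs replicate 3, and its log2 fold change was 0.11 ± 0.09. Without PSNPs replicate 3 it was called higher (0.18, edgeR adjusted p = 0.00918), as it was with the first length offset (0.22, edgeR adjusted p = 0.023). With the robust length offset it was not called (0.13, edgeR adjusted p = 0.116). Ndufb9, an accessory subunit, had 74.0, 71.8 and 104 CPM in PSNPs libraries and 87.2, 91.2 and 89.7 CPM in IR-813 libraries. PSNPs replicates 1 and 2 lay below all IR-813 libraries and replicate 3 above them. Ndufv2, a core iron-sulfur subunit, showed the same layout, at 91.7, 90.2 and 124 CPM in PSNPs libraries and 98.9, 99.3 and 104 CPM in IR-813 libraries. Without PSNPs replicate 3 both Ndufb9 and Ndufv2 were called lower.

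Complex II oxidises succinate and also belongs to the tricarboxylic acid cycle. All of its 4 subunits were tested, and 2 were called higher (50%, against 20.9% of all tested genes). Sdha, the flavoprotein, had 271, 271 and 276 CPM in PSNPs libraries and 229, 229 and 237 CPM in IR-813 libraries. The libraries of each group lay close together, and the log2 fold change was 0.23 ± 0.07 (edgeR adjusted p = 0.0294). Sdhc, a membrane anchor, had 230.2, 232 and 297 CPM in PSNPs libraries and 197, 197 and 204 CPM in IR-813 libraries, with PSNPs replicate 3 well above the rest. It differed by 0.35 ± 0.11 (edgeR adjusted p = 0.0458). The iron-sulfur subunit Sdhb and the other anchor Sdhd had log2 fold changes of 0.08 ± 0.12 and 0.07 ± 0.10 with overlapping groups. With the robust length offset the median of the 4 subunits was 0.01. In that fit Sdha was called higher and Sdhb lower (edgeR adjusted p = 0.00637 and 0.0456), against 24.1% and 22.7% of all tested genes. The call of Sdha was lost without any 1 library except PSNPs replicate 3 (edgeR adjusted p of 0.0601 to 0.142), and that of Sdhc without IR-813 replicate 1, 2 or 3 (edgeR adjusted p = 0.137, 0.143 and 0.102). Scaling by library size or adding the replicate block also ended both calls (edgeR adjusted p = 0.107 and 0.0808 for Sdha, 0.0982 and 0.0574 for Sdhc), and Sdhc had 0.0544 with RLE size factors, 0.0699 with limma on the deposited log2 values and 0.0704 with the robust length offset.

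Complex III carries electrons from ubiquinol to cytochrome c. Of its 9 tested subunits 4 were called higher (44.4%, against 20.9% of all tested genes) and 0 lower (against 20.1%). Their median log2 fold change was 0.27. With the robust length offset it was 0.12, and 3 were called higher, against 24.1% of all tested genes. Uqcr11, the smallest subunit of the complex, had 128, 126 and 187 CPM in PSNPs libraries and 83.9, 82.4 and 91.0 CPM in IR-813 libraries. The groups lay apart, at 0.78 ± 0.16 on the log2 scale (edgeR adjusted p = 0.00932), and the call held in all 15 alternatives. Uqcrh, the hinge protein beside cytochrome c1, had 70.9, 75.6 and 100.2 CPM in PSNPs libraries and 52.6, 50.8 and 58.7 CPM in IR-813 libraries. It differed by 0.61 ± 0.15 (edgeR adjusted p = 0.016). Uqcr10, another small subunit, had 93.4, 96.9 and 142 CPM in PSNPs libraries and 73.7, 69.4 and 81.6 CPM in IR-813 libraries, a difference of 0.56 ± 0.17 (edgeR adjusted p = 0.0363). The core protein Uqcrc1, whose promoter is printed above with its YY1 letters, had 323, 319.6 and 425 CPM in PSNPs libraries and 272, 269 and 274 CPM in IR-813 libraries. The groups did not overlap, and the log2 fold change was 0.39 ± 0.12 (edgeR adjusted p = 0.0407).

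The nuclear-encoded subunits that carry out the electron transfer in complex III were not called. The Rieske iron-sulfur protein Uqcrfs1 had a log2 fold change of 0.27 ± 0.11 and cytochrome c1 (Cyc1) of 0.15 ± 0.12. The second core protein, Uqcrc2, had 219, 221 and 239.6 CPM in PSNPs libraries and 215, 226 and 220.1 CPM in IR-813 libraries, with overlapping groups and a log2 fold change of 0.04 ± 0.07. Cycs, the cytochrome c that shuttles to complex IV, had 141, 146 and 182 CPM in PSNPs libraries and 163, 166 and 164 CPM in IR-813 libraries. PSNPs replicates 1 and 2 were the lowest of the 6 and replicate 3 the highest. Its log2 fold change was -0.07 ± 0.11, and without PSNPs replicate 3 it was called lower. Leaving out IR-813 replicate 1 or 2 ended the calls of Uqcrh (edgeR adjusted p = 0.0655 and 0.0713), Uqcr10 (0.112 and 0.127) and Uqcrc1 (0.117 and 0.130); without IR-813 replicate 3, Uqcr10 had 0.0702 and Uqcrc1 0.102. Scaling by library size and limma on the deposited log2 values also ended the calls of Uqcr10 (adjusted p = 0.0598 and 0.0595) and Uqcrc1 (0.0802 and 0.0597), as did the robust length offset for Uqcr10 (edgeR, 0.118) and the replicate block for Uqcrc1 (edgeR, 0.0557).

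Complex IV reduces oxygen to water, and its catalytic core is encoded in mitochondrial DNA. The nuclear subunits in the table surround that core. Of 12 tested, 2 were called higher (16.7%, below the 20.9% of all tested genes) and 0 lower (against 20.1%). The median log2 fold change was nevertheless 0.35. Summed, PSNPs replicates 1 to 3 had 1589, 1569 and 2253 CPM, against 1395, 1402 and 1471 CPM in IR-813 replicates 1 to 3. PSNPs replicate 3 again lay far above the rest. Cox7c had 163, 157 and 203 CPM in PSNPs libraries and 125, 125 and 135 CPM in IR-813 libraries (log2 fold change 0.44 ± 0.11, edgeR adjusted p = 0.0205). Cox7b had 69.6, 71.9 and 98.5 CPM in PSNPs libraries and 54.9, 53.7 and 59.3 CPM in IR-813 libraries (0.52 ± 0.15, edgeR adjusted p = 0.0288). Both are small single-span subunits, and in both the groups did not overlap. With the robust length offset their log2 fold changes were 0.06 and 0.12, neither was called (edgeR adjusted p = 0.409 and 0.165), and the median of the 12 subunits turned to -0.0135. Without IR-813 replicate 1 or 2 neither was called (edgeR adjusted p = 0.0799 and 0.0860 for Cox7c, 0.0976 and 0.106 for Cox7b), and Cox7b had 0.0653 without IR-813 replicate 3 and 0.0508 scaled by library size.

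Several complex IV subunits exist as a widely expressed form and a form restricted to certain tissues. Cox4i1, the common form of subunit 4, had 302, 288 and 441 CPM in PSNPs libraries and 272, 274 and 281 CPM in IR-813 libraries, with no overlap but no call (log2 fold change 0.32 ± 0.16, edgeR adjusted p = 0.16). Its partner Cox4i2, known from lung, had 29, 17 and 33 counts in PSNPs libraries and 30, 23 and 28 counts in IR-813 libraries. The groups overlapped, and its log2 fold change of 0.09 ± 0.27 turned to -0.13 without PSNPs replicate 3. Cox6a1 had 252, 250.2 and 382 CPM in PSNPs libraries and 218, 228 and 243 CPM in IR-813 libraries, a log2 fold change of 0.36 ± 0.17 without a call. The heart and muscle form Cox6a2 had 1, 0 and 1 counts in PSNPs libraries and 12, 21 and 9 counts in IR-813 libraries, under the filter and not tested. Cox8a had 170.0, 165 and 232 CPM in PSNPs libraries and 164, 166 and 169.8 CPM in IR-813 libraries. Its log2 fold change of 0.18 ± 0.14 turned to -0.20 with the robust length offset, where it was called lower (edgeR adjusted p = 0.0108). Cox8c had at most 1 count in any library.

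Cox6b2, known in mammals as the testis form of subunit 6b, had 50, 41 and 58 counts in PSNPs libraries and 50, 33 and 20 counts in IR-813 libraries. The groups overlapped and no call was made (log2 fold change 0.67 ± 0.32, edgeR adjusted p = 0.136). Ndufa4, long listed with complex I and now counted with complex IV, had 168, 173 and 251 CPM in PSNPs libraries and 141, 140.2 and 152 CPM in IR-813 libraries. Its log2 fold change was 0.45 ± 0.16, just short of a call (edgeR adjusted p = 0.0595), and DESeq2 called it (adjusted p = 0.0425). Its paralogue Ndufa4l2, a gene known to respond to low oxygen, had 1, 2 and 5 counts in PSNPs libraries and 9, 7 and 7 counts in IR-813 libraries and was not tested.

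Complex V joins a catalytic F1 head to a membrane Fo part by a stalk. For all 14 of its tested subunits the groups did not overlap, each higher with PSNPs, against 30.0% of all tested genes higher without overlap. Of the 14 subunits, 5 were called higher (35.7%, against 20.9% of all tested genes). Summed, PSNPs replicates 1 to 3 had 4174, 4088 and 5406 CPM, against 3553, 3609 and 3698 CPM in IR-813 replicates 1 to 3. The median log2 fold change was 0.41, with 0.44 for Fo and stalk subunits (4 of 9 called, 44.4%) and 0.31 for F1 subunits (1 of 5 called, 20%). Without PSNPs replicate 3 the median of the 14 was 0.21 and 12 were called higher, against 30.4% of all tested genes called higher in that fit. With the robust length offset the median was 0.09 and 3 were called higher, against 24.1% of all tested genes.

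Atp5j2, subunit f of the membrane part, had 150.0, 152 and 222 CPM in PSNPs libraries and 100.4, 95.9 and 112 CPM in IR-813 libraries. The groups lay apart and the log2 fold change was 0.77 ± 0.16 (edgeR adjusted p = 0.0102), a call that held in all 15 alternatives. Atp5j, coupling factor 6 of the stalk and shown above with YY1 letters in its promoter, had 86.0, 90.0 and 119 CPM in PSNPs libraries and 66.0, 64.1 and 68.7 CPM in IR-813 libraries (0.57 ± 0.14, edgeR adjusted p = 0.015). RefSeq names 3 pseudogenes of Atp5j2 and 4 of Atp5j, so shared reads leave some uncertainty in both. Atp5h, subunit d of the stalk, had 203, 200.2 and 294 CPM in PSNPs libraries and 162, 159 and 166 CPM in IR-813 libraries (0.51 ± 0.16, edgeR adjusted p = 0.0352). Atp5i, subunit e, had 67.3, 70.6 and 99.5 CPM in PSNPs libraries and 56.3, 54.7 and 58.0 CPM in IR-813 libraries (0.49 ± 0.16, edgeR adjusted p = 0.0421). In both, PSNPs replicate 3 stood far above the other 5 libraries.

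In the F1 head the alpha subunit Atp5a1 was called (log2 fold change 0.31 ± 0.10, edgeR adjusted p = 0.0487) and its catalytic partner, the beta subunit Atp5b, was not (0.21 ± 0.11, edgeR adjusted p = 0.158); the difference between them was not tested. The call of Atp5a1 lay at the threshold: it was lost without any 1 library except PSNPs replicate 3 (edgeR adjusted p of 0.0567 to 0.164), with RLE size factors (0.0579), library size (0.114), the replicate block (0.0694) and limma on the deposited log2 values (0.0761). Atp5b had 1322, 1284 and 1572 CPM in PSNPs libraries and 1211, 1213 and 1201 CPM in IR-813 libraries. The 3 genes for the subunit c ring, Atp5g1, Atp5g2 and Atp5g3, had log2 fold changes of 0.29, 0.42 and 0.44 without a call. With the robust length offset Atp5h and Atp5i were not called (edgeR adjusted p = 0.0526 and 0.549), nor scaled by library size (0.0590 and 0.0727) or by limma on the deposited log2 values (adjusted p = 0.0616 and 0.0893). Atp5i also had 0.0968 with the first length offset, and 0.0532 with that offset without PSNPs replicate 3. Without IR-813 replicate 1 or 2 the calls of Atp5j (edgeR adjusted p = 0.0590 and 0.0662), Atp5h (0.105 and 0.113) and Atp5i (0.119 and 0.133) were lost, and without IR-813 replicate 3 those of Atp5h (0.0906) and Atp5i (0.0999).

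Of the tested assembly factors 3 were called higher (17.6%) and 1 lower (5.88%), against 20.9% and 20.1% of all tested genes. Atp5sl carries an ATP synthase name but is the gene RefSeq calls Dmac2, whose product helps to build the distal membrane arm of complex I. It had 47.9, 46.4 and 49.4 CPM in PSNPs libraries and 32.0, 26.4 and 31.5 CPM in IR-813 libraries. The PSNPs libraries lay close together above all IR-813 libraries, and the log2 fold change was 0.68 ± 0.11 (edgeR adjusted p = 0.00289). Ndufaf4, which acts with Ndufaf3 early in complex I assembly, had 25.6, 22.6 and 20.98 CPM in PSNPs libraries and 41.5, 35.8 and 33.7 CPM in IR-813 libraries. It was the only member called lower, at -0.68 ± 0.12 (edgeR adjusted p = 0.00539), again without overlap. RefSeq names 5 pseudogenes of Ndufaf4. Both calls held in all 15 alternatives run, also without PSNPs replicate 3, where the log2 fold changes were 0.66 and -0.62. The Ndufaf4 promoter holds NRF1 letters, as does that of the called-higher Ndufa11 (both printed above).

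Cox16, which helps to deliver copper to complex IV, had 22.3, 22.3 and 23.3 CPM in PSNPs libraries and 14.9, 15.1 and 16.4 CPM in IR-813 libraries. The groups were tight and apart (log2 fold change 0.55 ± 0.10, edgeR adjusted p = 0.00473), and with the robust length offset the call was lost (0.27, edgeR adjusted p = 0.080). Sdhaf2, which attaches flavin to Sdha, had 75.1, 74.9 and 73.2 CPM in PSNPs libraries and 57.6, 57.4 and 57.3 CPM in IR-813 libraries. PSNPs replicate 3 was not the highest here, and the difference was 0.37 ± 0.07 (edgeR adjusted p = 0.00719; 0.0511 without IR-813 replicate 2). Sdhaf2 and Sdha, the subunit it acts on, were both called higher.

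**Figure D5:**
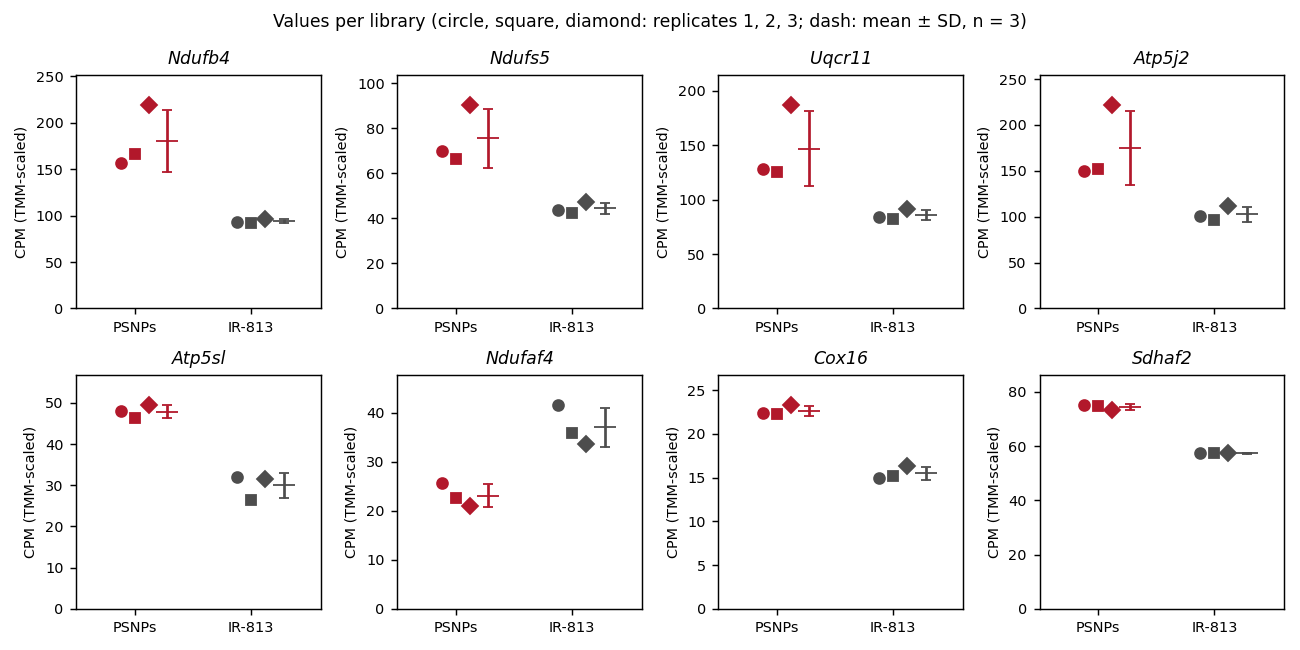
CPM in each library (y axis, scaled by TMM, starting at 0) for 8 members, PSNPs in red and IR-813 in grey; circle, square and diamond are replicates 1 to 3, and the dash with bars is the mean ± SD (n = 3). PSNPs replicate 3 is the outlying high value for Ndufb4, Ndufs5, Uqcr11 and Atp5j2, whereas Atp5sl, Cox16 and Sdhaf2 have tight groups and Ndufaf4 is lower in all PSNPs libraries.

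Assembly factors without a call ran in both directions. Cox11, which carries copper to the catalytic core of complex IV, had 10.4, 11.04 and 6.57 CPM in PSNPs libraries and 12.8, 13.4 and 12.7 CPM in IR-813 libraries. The groups did not overlap, but the log2 fold change of -0.47 ± 0.20 was not called (edgeR adjusted p = 0.0997). Cox18, which inserts a catalytic subunit into the membrane, had 10.4, 9.23 and 13.5 CPM in PSNPs libraries and 13.96, 13.3 and 12.1 CPM in IR-813 libraries (-0.25 ± 0.16). Cox11 and Cox18 were called lower without PSNPs replicate 3. The copper chaperones Sco1 and Cox17 had log2 fold changes of -0.10 ± 0.10 and -0.02 ± 0.14, and Cox15, which makes heme A, of 0.04 ± 0.09. Cox17 was called lower with the first length offset and with its robust form (edgeR adjusted p = 0.0301 and 0.00658). Cox15 was called higher with the first length offset but not with its robust form (edgeR adjusted p = 0.0244 and 0.12). Among complex I factors, Ndufaf1, Ndufaf3, Ndufaf5, Ndufaf6 and Ndufaf7 lay between -0.02 and 0.29. Of these, Ndufaf1 was called higher without PSNPs replicate 3 (edgeR adjusted p = 0.0248). Of the members in neither class, the supercomplex factor Cox7a2l had -0.03 ± 0.12, Atp5s 0.34 ± 0.13 and Ndufa10l1 0.17 ± 0.13, all without a call. Cox7a2l was called lower without PSNPs replicate 3 and with the robust length offset (edgeR adjusted p = 0.0265 and 0.0412).

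The filter left out 8 members. Ndufa1, Surf1, Cox6c-ps1 and Cox8b were listed at 0 in all 6 libraries. Hprt1, a gene that all cells use, and Surf2, the neighbour of Surf1, were also listed at 0 in all 6, so these zeros are not read as absence. Atp5f1, subunit b of the stalk, had 41 counts in IR-813 replicate 3 and 0 in the other 5 libraries, and the remaining 3 were Cox8c, Cox6a2 and Ndufa4l2. The subunits encoded in mitochondrial DNA (0 of 13 in the table), Sco2, Cox6b1, Cox7a1, Ndufa3, Ndufa13, Ndufb1 and Ndufc1 were not analysed here.

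Other genes of the pathway are counted against the same background of 20.9% higher and 20.1% lower. Their values are from the main fit, in which short genes had the higher estimates. No values with a length offset are given for them. Among 41 tested genes for other assembly factors, electron transfer and coenzyme Q synthesis, 13 were called higher (31.7%) and 1 lower (2.44%), shares close to those of the members, with a median of 0.28. Those with the smallest p were Etfa and Etfdh, which feed electrons from fatty acid oxidation to ubiquinone, with log2 fold changes of 0.61 ± 0.08 and 0.55 ± 0.08 (edgeR adjusted p = 0.0016 and 0.00228), and Nubpl, an iron-sulfur factor for complex I, with 0.86 ± 0.14 (0.00336). Atpaf1, which assembles the F1 head, was the gene called lower, at -0.56 ± 0.10 (edgeR adjusted p = 0.00511). Etfa had 137, 142 and 158 CPM in PSNPs libraries and 97.1, 93.9 and 94.8 CPM in IR-813 libraries, without overlap.

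Among 20 regulators of mitochondrial biogenesis, 2 were called higher (10%) and 4 lower (20%), with a median of -0.05. The coactivator Ppargc1b had 1.75, 1.91 and 1.41 CPM in PSNPs libraries and 5.32, 4.98 and 4.53 CPM in IR-813 libraries, a log2 fold change of -1.55 ± 0.17 (edgeR adjusted p = 0.000781). Its relative Pprc1 and the mitochondrial transcription factor Tfb1m were also lower, at -0.68 ± 0.11 and -0.67 ± 0.09 (edgeR adjusted p = 0.00322 and 0.00197). Among factors whose letters were searched in the promoters, Nrf1 at -0.31 ± 0.11, Yy1 at -0.12 ± 0.13, Esrra at 0.34 ± 0.13 and Gabpa at 0.02 ± 0.16 were not called. Gabpb1, of the same list, was called lower, at -0.33 ± 0.10 (edgeR adjusted p = 0.0311). Tfam at 0.14 ± 0.11 and Ppargc1a at -0.30 ± 0.44 were not called. Of 26 genes of the tricarboxylic acid cycle and pyruvate dehydrogenase, 6 were higher (23.1%) and 1 lower (3.85%), with a median of 0.13. They included the pyruvate dehydrogenase kinases Pdk2 and Pdk4, which inhibit that enzyme, at 0.74 ± 0.11 and 1.25 ± 0.32, and Suclg2, a subunit of succinyl-CoA ligase, at 0.29 ± 0.07. Of 22 genes for import and carriers, 9 were higher (40.9%) and 1 lower (4.55%), with a median of 0.20. They included Tomm7, a small subunit of the import pore, at 0.75 ± 0.15, the porin Vdac1 at 0.38 ± 0.08 and the ADP/ATP carrier Slc25a4 at 0.52 ± 0.12. The import receptor Tomm70a was lower, at -0.65 ± 0.17.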

How the data were processed

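The authors deposited a table of raw counts per gene symbol for the 6 libraries and, per library, normalized values on a log2 scale whose scaling the labels do not state. Per the labels' protocols, RNA was poly(A)-selected and prepared with the NEBNext Ultra II kit. The submitters' processing notes name bcl2fastq and build mRatBN7.2; aligner, counter, annotation and strand setting were not given in the sources used here, so reads of overlapping or antisense genes and of pseudogene copies cannot be told apart. RefSeq names pseudogenes for 42 of the 100 members. Of these members 83 matched the RefSeq GRCr8 table by symbol and 17 by an older name.

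Counts were tested with edgeR 4.0.16 in R 4.3.3 (filterByExpr, TMM scaling, quasi-likelihood test, Benjamini-Hochberg adjustment over 11679 genes, calls at an adjusted p under 0.05, log2 fold change PSNPs over IR-813, SE from the F statistic). CPM are TMM-scaled. Alternatives used other scalings, no filter, DESeq2 1.42.0, limma 3.58.1 on the deposited log2 values, replicate number as a block, length offsets (loess, span 0.4) and each library left out. The length proxy rests on genes with at least 10 counts; it made counts and deposited values proportional within 0.05 on the log2 scale for at least 99% of genes in each library. Depth was 19166605 to 22553507 counts per library, and the common biological coefficient of variation was 0.159. No 2 libraries agreed within sampling noise.

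Named were the 4 called subunits of each complex with the smallest p per direction, every called assembly factor, tissue-restricted paralogues with their common partners, any member past 2-fold without overlap, and the 3 genes with the smallest p of each other pathway list; further members are named as ranges, lowest values or losses of a call and were picked after their values were seen. The counts and medians cover all tested members, of which 1 is not reported here by itself or drawn in the plot by complex. The members and lists were chosen with earlier results of these data known.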

Additional observations from a re-analysis of the deposited data

How the results depend on the processing

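Ndufb4, Ndufs5, Uqcr11, Atp5j2 and Atp5sl (higher) and Ndufaf4 (lower) kept their calls in all 15 alternatives, and the subunit median stayed above 0 in each, at its lowest 0.0654 with the robust length offset. Members called higher numbered 28 as reported, 14 with library size only, 19 with limma on the deposited log2 values (20.7%, against 19.9% of all genes), 16 with the robust length offset and 6 to 50 when a library was left out. Members called lower numbered 2 without the count filter, 3 with the length offset, 9 with its robust form, 11 with the length offset without PSNPs replicate 3, and 1 to 8 when a library was left out. Subunits called higher numbered 11 with library size only, 16 with limma on the deposited log2 values, 14 with the robust length offset and 4 to 46 when a library was left out. Subunits called lower numbered 1 without the filter, 1 with the length offset, 5 with its robust form, 7 with the length offset without PSNPs replicate 3, and 0 to 4 when a library was left out. Some of these counts include a subunit that the main fit had filtered out, as does the 1 without the filter. Among the 72 subunits of the main fit, 3 were lower without PSNPs replicate 3 and 6 with the length offset without that library. Assembly factors called higher numbered 5 with the length offset without PSNPs replicate 3. Assembly factors called lower numbered 2 with the length offset, 3 with its robust form, 3 with the length offset without PSNPs replicate 3, and 1 to 3 when a library was left out. The cause of these changes was not tested. The median of the assembly factors turned to -0.0709 without PSNPs replicate 3 and ranged from there to 0.138 when a library was left out; it was -0.0749 with the length offset without PSNPs replicate 3 and -0.0965 with the robust length offset. Subunits with an estimate above 0 numbered 70 of 72 as reported, 67 with library size only, 63 without PSNPs replicate 3, 61 with the length offset, 53 with the length offset without PSNPs replicate 3 and 47 with its robust form. Among the 26 tested members named by rule, those that changed sign were Cox4i2 (-0.11 with the length offset, -0.13 without PSNPs replicate 3 and up to 0.30 without PSNPs replicate 2, -0.23 with the length offset without PSNPs replicate 3, -0.22 with the robust offset), Cox8a (-0.082 with the length offset, -0.11 without PSNPs replicate 3 as well, -0.20 with the robust offset), Cox4i1 (-0.0092) and Cox6a1 (-0.016), the last pair with the robust offset. The length offset moved the median of all genes to 0.0906 and 62.6% of calls to the higher side, against 50.9%; the robust form gave -0.0104 and 51.6%. Same-numbered libraries deviated together with correlations of -0.00585, 0.0145 and 0.121 for replicates 1, 2 and 3. The value for replicate 3 lay above the 0.1 set for calling a pair and the others below it. These values therefore do not decide whether the numbers pair the libraries. With replicate number as a block 22 members were higher (23.9%, against 17.4% of all genes) and 1 lower (1.09%, against 18.2%).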
